A study of Sus scrofa with 4 samples.

Results

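The islet hormones studied here were 6 genes, namely INS, GCG, SST, PPY, GHRL and TTR. They were chosen by name, and for each of them all features of the deposited matrices were summed, so that 6 of 30282 genes are described. The data were droplet-based single-cell transcriptomes of 4 pig libraries. Primary pancreas 1 and 2 were dissociated organs of German landrace pigs aged PN150. The methods give 1 of these pigs as wild type and 1 as carrying an INS-eGFP transgene, in which the porcine insulin promoter drives eGFP in beta cells. According to the methods, hand-picked ducts of the first pancreas gave sample #1. Sample #2 carried the transgene, and in it sorted eGFP-positive cells, sorted cells that bind Dolichos biflorus agglutinin (a label of ductal cells) and unselected live cells were pooled. It was assumed that the replicate numbers in the sample titles are these sample numbers, and the labels give no genotype. By this assumption primary pancreas 1 would be the wild-type organ. There UMIs of 1 eGFP feature of the annotation, mTmG_eGFP_bGH-pA-plus, were found in 38 of 45 endocrine-like cells whose leading hormone was INS (84.4%). In primary pancreas 2 they were found in 89.0% of such cells, and the cause was not tested. The part of the sort in the share of endocrine cells was not tested, and organ, day, stated genotype and sort cannot be told apart between these libraries. PPDO 1 and 2 were porcine pancreatic ductal organoids, epithelial cultures grown from pancreatic ducts in a medium with WNT3A, R-spondin and noggin (as an L-WRN supplement), EGF, FGF10, gastrin, prostaglandin E2, A83-01, Y-27632, nicotinamide and N-acetyl-L-cysteine. They came from 1 line each of a late postnatal and an adult pig at different passages, and which line gave which library is not stated in the labels.

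The endocrine pancreas is made of islets, small clusters of hormone cells scattered in an organ of acinar and ductal cells. Beta cells secrete insulin (INS), which lowers blood glucose, alpha cells secrete glucagon (GCG), which raises it, delta cells secrete somatostatin (SST), which inhibits both, and the rarer gamma and epsilon cells make pancreatic polypeptide (PPY) and ghrelin (GHRL). Transthyretin (TTR) is a carrier of thyroid hormone and of retinol-binding protein that islet cells also produce. A mature endocrine cell usually makes a single hormone in very large amounts, and for this reason its RNA is easily found as free RNA in droplets of other cells.

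On the pig genome Sscrofa11.1 the RefSeq gene INS lies on chromosome 2 at 1496842 to 1498052, GCG on chromosome 15 at 68800557 to 68810268, SST on chromosome 13 at 125337560 to 125338742, PPY on chromosome 12 at 19217649 to 19218680, GHRL on chromosome 13 at 66442106 to 66453576 and TTR on chromosome 6 at 115496338 to 115503974. The in-house annotation of the files counted INS and GCG as 1 feature each. It gave each of the other members 2 features, a gene model and a 3' extension of 10 kb, or of 3 kb for GHRL.

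After filtering, 8885 and 7337 PPDO cells and 5671 and 4261 primary cells remained, with 75903136 to 300990260 UMIs (unique molecular identifiers, each a counted molecule) in a library. The median PPDO cell held 34176 and 34459 UMIs, and the median primary cell 10169 and 23651 UMIs. Any pair of libraries shared 10 to 23 of the deposited cell barcodes, and 4 to 18 among kept cells. The labelled cell types were checked against markers. In PPDO, 10 and 8 of 11 ductal markers reached 1 CPM (UMIs per 1000000 UMIs), with the ductal keratin KRT7 at 389 and 384 CPM, whereas the chloride channel CFTR was at 1.04 and 0.636 CPM and at 552 and 173 CPM in primary pancreas. The 11 ductal markers summed to 1298 and 1181 CPM in PPDO and to 18603 and 7712 CPM in primary pancreas 1 and 2. All of them except KRT7 and BMPR1A were lower in both PPDO libraries than in both primary libraries. The 20 endocrine markers summed to 16.0 and 18.1 CPM in PPDO and to 357 and 10243.5 CPM in primary pancreas 1 and 2.

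To ask how much hormone RNA the organoids and the organ hold, levels were taken over all kept cells of a library. INS stood at 0.189 and 0.175 CPM in PPDO 1 and 2 and at 8547 and 384282 CPM in primary pancreas 1 and 2, where it made up 0.855% and 38.4% of all UMIs. GCG had no UMI in either PPDO library and 689 and 1706 CPM in primary pancreas. SST was at 0.0631 and 0.0800 CPM in PPDO and at 137 and 559 CPM in primary pancreas. A single cell held 10310 of the 10400 SST UMIs of primary pancreas 1, and without it the level there was 1.19 CPM. For INS and GCG the groups were far apart, and primary pancreas 2 was above primary pancreas 1 for all 3 hormones. PPY, the hormone of gamma cells, was at 0.0731 and 0.0305 CPM in PPDO and at 0.369 and 99.7 CPM in primary pancreas, so that nearly all of its difference lay in primary pancreas 2, where it was 1.89 CPM without 1 cell. In primary pancreas 1 a single cell held 23 of 28 PPY UMIs. Without it the PPY level there was 0.0659 CPM, under that of PPDO 1. TTR was at 0.243 and 0.103 CPM in PPDO and at 167 and 5618 CPM in primary pancreas. GHRL differed from the other members in that its groups overlapped, with 5.26 and 4.91 CPM in PPDO and 26.2 and 4.66 CPM in primary pancreas 1 and 2.

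**Figure D1:**
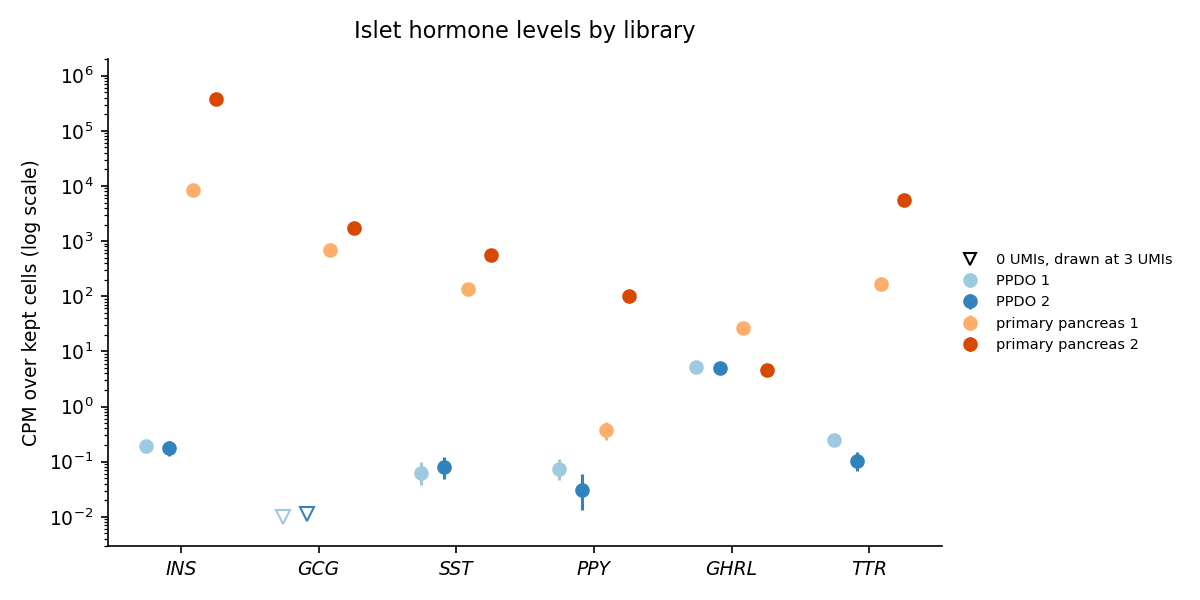
Level of each islet hormone over all kept cells of the 4 libraries, in CPM on a log axis. Bars are exact Poisson 95% intervals, which cover counting error only, and open triangles mark 0 UMIs at the level that 3 UMIs would give. INS, GCG, SST, PPY and TTR are lower in both PPDO libraries than in both primary libraries, and GHRL is not. For PPY this rests on 1 cell of primary pancreas 1, without which its level there is under that of PPDO 1.

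Sums per library were compared with edgeR's quasi-likelihood test with Benjamini-Hochberg adjustment over 24753 genes, 2 libraries against 2. Of the 6 members, 4 were lower in PPDO at an adjusted p under 0.05, where 13.7% of all genes tested were lower and 11.9% were higher. INS was lower by a log2 fold change of -19.95 (SE 3.38, adjusted p = 0.0297, edgeR), SST by -12.08 (SE 1.37, adjusted p = 0.0183, edgeR) and TTR by -13.94 (SE 2.81, adjusted p = 0.0394, edgeR). GCG was also lower (adjusted p = 0.0188, edgeR), and since PPDO had no UMI, the lower primary library was at least 60251-fold higher than 3 UMIs in a PPDO library would be. PPY had a log2 fold change of -9.82 (SE 3.26) and GHRL of -1.15 (SE 0.74), and neither passed (adjusted p = 0.0959 and 0.292, edgeR). These calls depended on which libraries were in the fit and, for SST, on 1 cell. A fit that leaves 1 library in a group takes its spread from the other group, so its calls cannot be set beside these. When the 3 cells that each held over 80% of the SST or PPY UMIs of their library were left out, an alternative added after seeing the data, SST lost its call (log2 fold change -11.85, SE 3.67, adjusted p = 0.0848, edgeR), while INS, GCG and TTR still passed. Without PPDO 1 or without PPDO 2, no member and no gene passed, and the adjusted p of the 4 members was 0.137 to 0.231 (edgeR), while the log2 fold changes of INS (-19.95 and -19.91), SST (-11.86 and -12.27) and TTR (-14.63 and -13.46) stayed close to those with all libraries. At an unadjusted p under 0.05 these fits still held 5138 and 4844 genes. Without primary pancreas 2 the log2 fold change was -2.28 for PPY and -1.83 for GHRL. It was also smaller in size there for INS (-14.98), SST (-10.36) and TTR (-9.37). Without primary pancreas 1 the log2 fold change of GHRL turned to 0.22. In sums over cells, fewer cells of a type and less RNA per cell cannot be told apart.

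Primary cells were clustered without the 6 members and named from marker genes. A group called endocrine-like held 54 of 5671 cells in primary pancreas 1 (0.952%, exact 95% interval 0.716 to 1.24) and 1815 of 4261 in primary pancreas 2 (42.6%, 41.1 to 44.1). In primary pancreas 1, 43 of these cells lay in cluster 22, and in primary pancreas 2, 1257 and 519 lay in clusters 0 and 4. Clustered at resolutions of 0.3 and 1.0 or with the members, in place of 0.5 without them, the class held 54, 71 and 101 cells in primary pancreas 1. In primary pancreas 2 it then held 1824, 2173 and 2203 cells. As used here, the class held 96.8% and 98.4% of the INS UMIs of its library. Within it INS reached 413853 and 548615 CPM, GCG 33952 and 2444 CPM, SST 6798 and 799 CPM, PPY 15.2 and 144 CPM, and TTR 8099 and 8052 CPM. Single cells made up some of these sums, since 1 cell held 10310 of the 10312 SST UMIs in primary pancreas 1, and 1 cell held 23 of 23 and 11567 of 11711 PPY UMIs in primary pancreas 1 and 2. Over all cells the libraries differed 44.96-fold in INS and 33.6-fold in TTR. The mean endocrine-like cell held 11626 and 24616 INS UMIs and 228 and 361 TTR UMIs, at median depths of 27809 and 42723 UMIs. Against the mean of 5 other named classes, the log2 fold change of the endocrine-like sums was 10.34 (SE 0.85) for INS, 10.36 (SE 0.70) for GCG, 11.20 (SE 0.74) for SST, 7.32 (SE 0.34) for PPY and 9.75 (SE 0.58) for TTR. GHRL went the other way, with -1.34 (SE 0.50). Without the 3 cells that held most of the SST or PPY of a library, the value was 5.86 (SE 0.66) for SST and 0.79 (SE 0.65) for PPY. Schwann-like cells did not enter, since primary pancreas 2 held 1 of them. The classes were drawn from other genes of the same cells, many of which move with the hormones, and so these values are a description and no p-value is given.

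Hormone UMIs were also found in cells of the other classes. In primary pancreas 1, INS was seen in 81.3% of 2155 ductal-like and 70.8% of 709 immune-like cells, with medians of 2 and 1 INS UMIs, where the median ductal-like cell held 17871 and the median immune-like cell 6695 UMIs. Every kept cell of primary pancreas 2 had INS, and the median was 124 UMIs in ductal-like and 94 UMIs in immune-like cells. The INS level was 7780 CPM in ductal-like and 11936 CPM in immune-like cells of primary pancreas 2, and 99.3 and 180 CPM in those of primary pancreas 1. How these UMIs came into cells of other classes was not tested. Per 1000 INS UMIs, GCG had 4.46 UMIs in endocrine-like and 2.64 (immune-like) to 4.31 (endothelial-like) UMIs in the 5 other classes of primary pancreas 2. In primary pancreas 1 it had 82.0 UMIs in endocrine-like and 59.3 (acinar-like) to 106 (immune-like) UMIs in these classes. The unnamed cells had 7.47 and 3.096 GCG UMIs per 1000 INS UMIs in primary pancreas 1 and 2. TTR had 14.7 UMIs per 1000 INS UMIs in endocrine-like and 10.5 to 11.5 in the other classes of primary pancreas 2, and 19.6 and 21.4 to 52.7 in primary pancreas 1.

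A cell was called positive for a hormone when its UMIs were above the 99th percentile of the immune-like and endothelial-like cells of its library and at least 3. This limit was 6.19 UMIs for INS in primary pancreas 1 (1782 reference cells) and 733 UMIs in primary pancreas 2 (402 reference cells). For GCG it was 2 and 4 UMIs, for SST 0 and 1 and for PPY 0 and 1 UMIs. Of all kept cells, 3.49% (exact 95% interval 3.03 to 4.003) and 49.9% (48.4 to 51.5) passed for at least 1 of the 5 hormones. The reference cells were scored too, and a small share of them passed by the rule itself. In primary pancreas 1 these were 18 cells for INS, 3 for GCG and 14 for GHRL. In primary pancreas 2 they were 5 for INS, 2 for GCG, 1 for SST and 4 for GHRL. A cell was then assigned to the hormone with the most UMIs above its limit, and is called led by it. Many INS-led cells of primary pancreas 1 were barely over the limit, since 161 cells were led by INS, 45 of them endocrine-like, and 63 held at least 100 INS UMIs.

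INS-led cells were the most frequent endocrine-like cells, 45 of 54 in primary pancreas 1 and 1774 of 1815 in primary pancreas 2. Under the stated assumption, primary pancreas 2 was a pool that included sorted eGFP-positive cells. The part of this sort in the share of INS-led cells was not tested, and these counts do not measure islet composition. INS-led endocrine-like cells held a median of 13118 INS UMIs (range 10 to 28578) and 23895 INS UMIs (830 to 72615). Their median GCG was 0 and 1 UMIs and their median SST was 0 UMIs in both libraries. GCG-led cells numbered 8 and 26. They held a median of 6984 GCG UMIs (254 to 12842) and 6696 GCG UMIs (1028 to 17099), with a median of 2.5 and 157 INS UMIs. None of the 26 passed the INS limit of primary pancreas 2, and 2 of the 8 passed that of primary pancreas 1, with at most 36 INS UMIs. SST-led cells numbered 1, with 10310 SST UMIs, and 11, with a median of 5382 SST UMIs (2365 to 9275). A single PPY-led cell, in primary pancreas 2, held 11567 PPY UMIs, which was 98.1% of all PPY UMIs of that library, and 93 INS UMIs. The remaining 3 endocrine-like cells of primary pancreas 2 passed for no hormone. GHRL led no endocrine-like cell (0 of 54, exact 95% upper limit 6.60%, and 0 of 1815, upper limit 0.203%), where at most 1 and 2 UMIs were found in a cell.

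**Figure D2:**
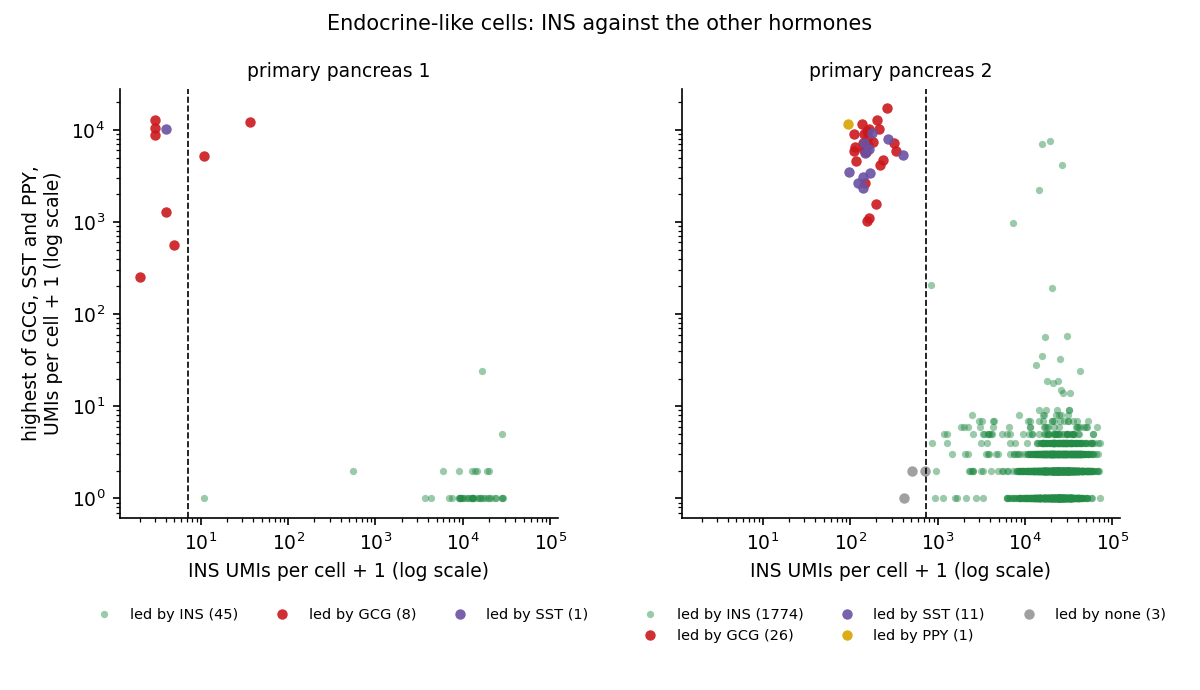
INS UMIs of each endocrine-like cell against its highest count among GCG, SST and PPY, both plus 1 and on log axes, in primary pancreas 1 and 2. Colours give the leading hormone and the dashed line the INS limit. Cells led by GCG, SST or PPY form a group at high counts of their own hormone, left of the INS limit except for 2 cells of primary pancreas 1, and a few INS-led cells of primary pancreas 2 lie high on both axes.

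More than 1 hormone above its limit was seen in 4 of 54 endocrine-like cells of primary pancreas 1 with any hormone (7.41%, exact 95% interval 2.06 to 17.9) and in 88 of 1812 of primary pancreas 2 (4.86%, 3.91 to 5.95). Over the hormone-positive cells of all classes it was seen in 5 of 198 (2.53%) and 179 of 2128 (8.41%), so that the order of the libraries turned. In most of these the weaker hormone was scarce. INS with GCG was the most frequent pair in primary pancreas 2, with 58 cells, and the lower of the 2 counts had a median of 6 UMIs. INS with SST followed with 26 cells and a median lower count of 4 UMIs, then INS with PPY with 6 cells and 4.5 UMIs, and GCG with SST with 4 cells and 4 UMIs. With a demand of at least 100 UMIs of each hormone, chosen after the data were seen, 0 of 54 and 7 of 1812 cells remained (0.386%, 0.155 to 0.794). Of these 7, 2 held INS and GCG, with up to 7522 UMIs of the lower one, and 5 held INS and SST, with up to 4157. The pair with GCG had a median depth of 66219.5 UMIs and the 5 with SST of 39667 UMIs, beside 42956 UMIs in INS-led endocrine-like cells. Their median doublet scores were 0.111 and 0.0779, and the median of endocrine-like cells with 1 hormone was 0.0613. Whether these droplets held more than 1 cell was not tested. The reference cells were shallower than endocrine-like cells, with medians of 8476 and 9630.5 against 27809 and 42723 UMIs, and with a limit in percent of a cell's UMIs the shares of cells with more than 1 hormone were 1.89% and 1.82%.

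INS took a large part of the transcriptome of INS-led endocrine-like cells. Its share of a cell's UMIs had a median of 50.7% in primary pancreas 1 (45 cells, quartiles 40.0 and 56.4%, SD 13.9) and of 56.0% in primary pancreas 2 (1774 cells, quartiles 48.7 and 62.1%, SD 11.2). It was over 50% in 24 of 45 and 1254 of 1774 cells, and the highest values were 70.3% and 80.2%. With 1 library on each side the difference between libraries has no test. Within primary pancreas 2, the median was 52.9% in the 1252 INS-led cells of cluster 0 and 62.8% in the 518 of cluster 4. Cluster 4 was led by NMU, SCG2, SCG5 and CHGA, and cluster 0 by CHGA, SCG2, G6PC2 and GAD2.

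**Figure D3:**
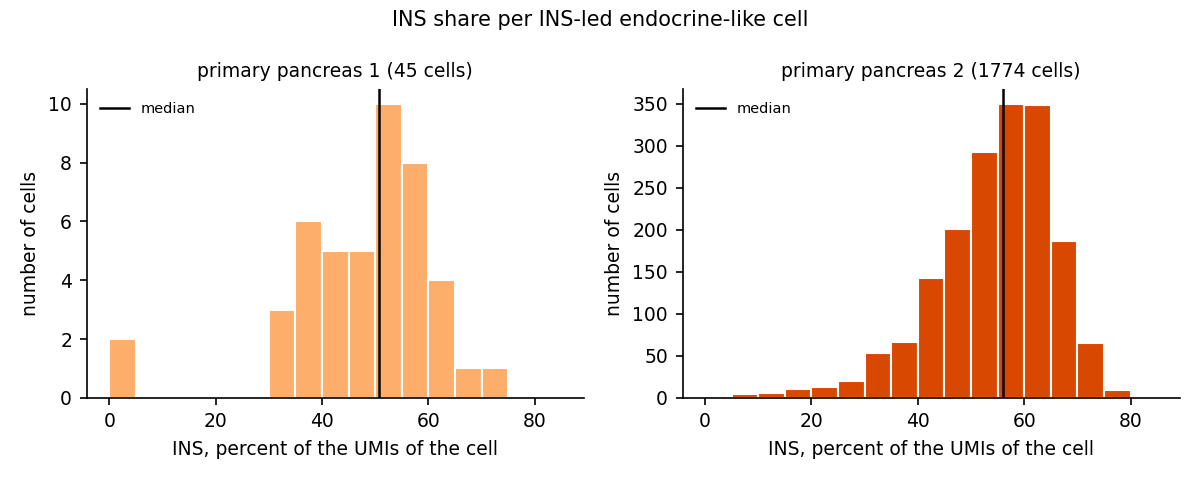
Number of INS-led endocrine-like cells by the percent of their UMIs that are INS, in bins of 5 percentage points, with the median as a line, for primary pancreas 1 (45 cells) and primary pancreas 2 (1774 cells). Most cells of both libraries lie between 35 and 70%, with few cells under 25%.

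Cells with a higher INS share held fewer other molecules. When the 1774 cells of primary pancreas 2 were cut at the quartiles, the 444 cells with the lowest share (4.93 to 48.7%) had a median of 21053.5 other UMIs and 6102.5 features, and the 444 with the highest (62.1 to 80.2%) had 15197 other UMIs and 5280.5 features. INS share had a Spearman correlation across cells of -0.33 with other UMIs and -0.58 with the mitochondrial share in primary pancreas 2 (n = 1774), and of -0.32 and -0.65 in primary pancreas 1 (n = 45). Total UMIs rose with INS share, with medians of 36428.5 in the lowest and 46094.5 in the highest group of primary pancreas 2. The Spearman correlation with total UMIs was 0.27 there and 0.34 in primary pancreas 1. Since INS and other UMIs are parts of the same total, a negative relation of INS share with other UMIs is partly built in. INS is in the denominator of each of these shares, and cells of 1 library are not replicates.

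TTR was found in every endocrine-like cell, but its amount differed between the hormone groups. GCG-led cells had the highest median TTR, 491 UMIs (9 to 1190) in primary pancreas 1 and 576.5 UMIs (98 to 2131) in primary pancreas 2. INS-led cells had 89 UMIs (4 to 1198) and 289 UMIs (5 to 1852). The 11 SST-led cells of primary pancreas 2 had 49 UMIs (10 to 125), and the PPY-led cell had 84 UMIs. The ranges of GCG-led and INS-led cells overlapped, and 1 SST-led cell reached 100 TTR UMIs. Across INS-led endocrine-like cells, INS and TTR UMIs had a Spearman correlation of 0.72 (n = 45) and 0.61 (n = 1774), and both counts rise with the depth of a cell.

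The hormone groups also differed in islet transcription factors, which were not used to assign the leading hormone. INS-led cells of primary pancreas 1 and 2 carried PDX1 at 75.7 and 85.2 CPM, NKX6-1 at 71.1 and 86.9 CPM and MAFA at 13.9 and 19.1 CPM, 3 factors known from beta cells. GCG-led cells had 5.08 and 1.16 CPM of PDX1, 0 and 11.6 CPM of NKX6-1 and no MAFA. They carried IRX2, a factor known from alpha cells, at 127 and 346 CPM, and INS-led cells had 0 and 0.760 CPM of it. HHEX, a factor of delta cells, was at 104 CPM in the 11 SST-led cells of primary pancreas 2 and at 0.386 CPM in INS-led cells. It was at 0 in the single SST-led cell of primary pancreas 1, and cells of other classes also carried it, with 36.9 and 28.1 CPM in ductal-like, 43.9 and 29.8 CPM in endothelial-like and 41.9 and 28.9 CPM in immune-like cells. PAX6 and RFX6, which endocrine cells share, were found in INS-led, GCG-led and SST-led cells, with RFX6 at 189 to 241 CPM in INS-led and 686 to 781 CPM in GCG-led cells. INS itself fills about as many UMIs as all other genes in INS-led cells, which lowers the CPM of every other gene there.

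**Figure D4:**
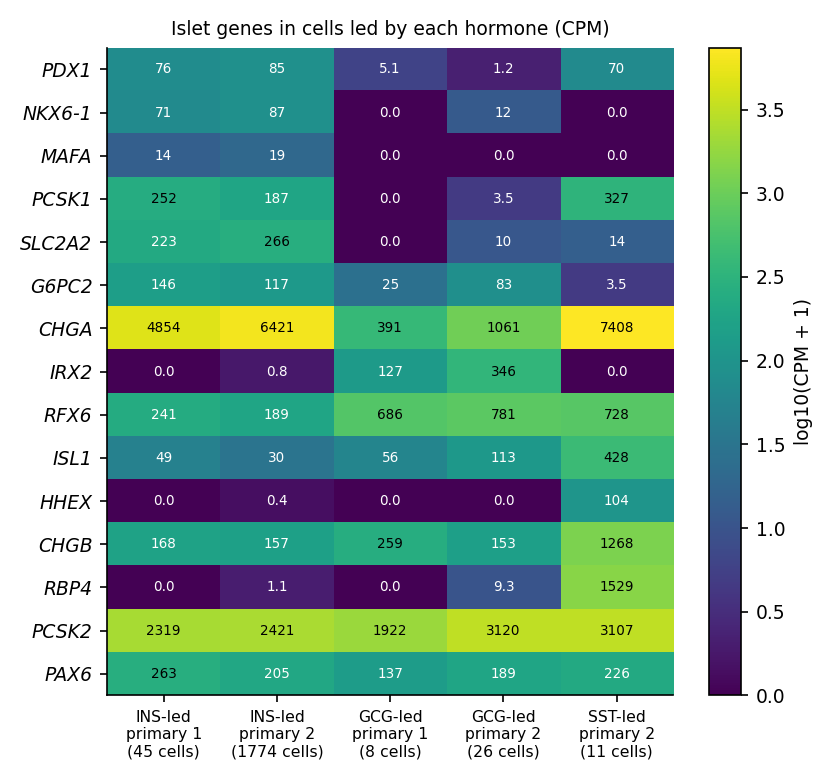
Levels of 15 islet genes in endocrine-like cells led by INS, GCG or SST, as CPM (printed) and as log10(CPM + 1) (colour). The genes were picked from the lists after their values were seen. NKX6-1, MAFA and SLC2A2 are highest in INS-led cells, PDX1 in INS-led and SST-led cells, IRX2 in GCG-led cells, and HHEX, CHGB and RBP4 in SST-led cells.

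Genes of hormone processing and secretion did not all follow 1 direction. PCSK1, a convertase that cleaves proinsulin, was at 252 and 187 CPM in INS-led, 0 and 3.47 CPM in GCG-led and 327 CPM in the 11 SST-led cells. PCSK2, the convertase that releases glucagon, was at 2319 and 2421 CPM in INS-led and 1922 and 3120 CPM in GCG-led cells. SCG5, a chaperone of PCSK2, was higher in GCG-led cells, at 1795 and 2004 CPM, than in INS-led cells, at 823 and 981 CPM. Counted per 1000000 UMIs outside the 6 members, an alternative added after seeing the data, SCG5 stood at 2498 and 2632 CPM in GCG-led and at 1618 and 2256 CPM in INS-led cells. PCSK2 stood on that scale at 4558 and 5566 CPM in INS-led and at 2674 and 4096 CPM in GCG-led cells. ABCC8, a subunit of the potassium channel that glucose closes, had no common direction there, with 1067 and 1071 CPM in INS-led and 814 and 1264 CPM in GCG-led cells. CHGA, a granule protein, was at 4854 and 6421 CPM in INS-led and 391 and 1061 CPM in GCG-led cells. The glucose transporter SLC2A2 was at 223 and 266 CPM in INS-led and 0 and 10.4 CPM in GCG-led cells. The receptor GLP1R was at 23.9 and 31.8 CPM in INS-led cells and at 0 in GCG-led cells of both libraries. GCGR, the receptor of glucagon, was at 11.6 and 22.0 CPM in INS-led and 0 and 1.16 CPM in GCG-led cells. IAPP, the gene of the islet peptide amylin that is released with insulin in many mammals, was at 0 and 0.123 CPM in endocrine-like cells of primary pancreas 1 and 2 and at 0.448 and 0.144 CPM over all kept cells. This sum holds a gene model and its 3' extension, and whether the annotation places all IAPP molecules on them was not tested.

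Genes other than the members that set the groups apart were named by a rule of size. For INS-led cells these were ESM1, GRM5, CADM2, CNTN4 and CA10, with ESM1 at 502 and 490 CPM against 0 and 6.77 CPM in other hormone-led cells. For GCG-led cells of primary pancreas 2 they were GPC6, CXCL12, FABP5, TMEM132D and FAP. GPC6 stood at 822 CPM against 1.19 CPM, and the 8 GCG-led cells of primary pancreas 1 had 778 CPM against 1.51 CPM. CXCL12, a chemokine, was at 777 against 4.01 CPM, and at 798 against 6.82 CPM in primary pancreas 1. For SST-led cells they were RBP4, TRPM3, ST6GALNAC5, PENK and NWD2. RBP4, the carrier of retinol that binds TTR in blood, was at 1529 CPM in the 11 SST-led cells and at 1.18 CPM in other hormone-led cells. The single SST-led cell of primary pancreas 1 had 978 CPM of RBP4. No fold has a test here, since cells of 1 library are not replicates.

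Over 36 sums of a cluster in a library, the genes with the pattern most like INS were SCG2 (r = 0.97), TTR (r = 0.97) and PCSK2 (r = 0.94). For TTR they were SCG2 (r = 0.97), INS (r = 0.97) and PCSK2 (r = 0.95). GCG was most like SST (r = 0.96), RIPPLY2 (r = 0.90) and LY6H (r = 0.89), and SST most like GCG (r = 0.96), SCGN (r = 0.92) and CHGB (r = 0.92). PPY was most like IRX1 (r = 0.88), GPR119 (r = 0.88) and GCG (r = 0.86). GHRL was most like ARHGAP4 (r = 0.88), PHF11 (r = 0.88) and ACSL4 (r = 0.87). The sums of a library share its depth and free RNA, and of the endocrine-like cells of primary pancreas 2, 24 of 26 GCG-led and 10 of 11 SST-led cells lay in cluster 22, which held 140109 CPM of GCG and 42964 CPM of SST in that library.

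In PPDO the genes that make, store and sense the hormones were compared with primary pancreas from 4 lists. None of the 42 genes tested was higher in PPDO, where 11.9% of all genes were. Of 14 genes of hormone processing and granules, 5 were lower, where 13.7% of all genes were, with a median log2 fold change of -6.35 beside -0.12 over all genes. PCSK2 was at 0.279 and 0.213 CPM in PPDO and 56.8 and 1906 CPM in primary pancreas (log2 fold change -11.87, SE 2.57, adjusted p = 0.0444, edgeR). SCG2 was also lower, at 0.0432 and 0.0267 against 19.6 and 869 CPM, and the others that passed were SLC30A8, PAM and IAPP, the last from levels of at most 0.448 CPM. PAM was at 53.3 and 72.0 CPM in PPDO and at 230 and 355 CPM in ductal-like primary cells. CHGA, at 4.72 and 6.31 against 108 and 4478 CPM, and SCG5, at 2.67 and 2.50 against 27.4 and 702 CPM, did not pass (adjusted p = 0.0672 and 0.0716, edgeR).

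Of 13 islet transcription factors tested, 4 were lower in PPDO, where 13.7% of all genes were (median log2 fold change of the 13 -6.05). RFX6, a factor of endocrine development, was at 0.0233 and 0.00381 CPM in PPDO and 7.94 and 158 CPM in primary pancreas, and NKX6-1 at 0.0498 and 0.0114 against 24.4 and 73.1 CPM. The others were NEUROD1 and ISL1. PDX1, which marks pancreatic progenitors as well as beta cells, was at 23.9 and 12.2 CPM in PPDO and at 28.8 and 75.7 CPM in primary pancreas, and did not pass (adjusted p = 0.234, edgeR). In ductal-like primary cells PDX1 was at 46.2 and 66.3 CPM and NKX6-1 at 39.9 and 52.3 CPM. PAX6, at 0.266 and 0.179 against 5.99 and 151 CPM, did not pass either. IRX2, which GCG-led cells carried, was at 9.12 and 14.8 CPM in PPDO and at 0.501 and 3.104 CPM in primary pancreas, groups that do not overlap, and did not pass (adjusted p = 0.134, edgeR). Of 6 genes of glucose sensing and secretion, 3 were lower, where 13.7% of all genes were. These were the channel subunit ABCC8 at 0.279 and 0.225 against 27.5 and 376 CPM, the calcium channel CACNA1D at 5.68 and 4.29 against 125 and 317 CPM, and G6PC2. In ductal-like primary cells CACNA1D was at 158 and 146 CPM. SLC2A2 and the potassium channel KCNJ11 did not pass, at 0.272 and 0.0953 against 4.90 and 206 CPM and at 0.575 and 0.393 against 4.56 and 117 CPM. The endocrine-like class made up 0.952% and 42.6% of the primary cells, and its part in these differences was not tested.

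Of 9 hormone receptors tested, 3 were lower in PPDO, where 13.7% of all genes were (median log2 fold change of the 9 -6.32). The insulin receptor INSR was at 14.1 and 10.4 CPM in PPDO and at 95.03 and 54.2 CPM in primary pancreas (log2 fold change -2.27, SE 0.26, adjusted p = 0.0186, edgeR). It was at 83.5 and 112 CPM in ductal-like and 39.6 and 23.7 CPM in endocrine-like cells, and per 1000000 UMIs outside the 6 members at 83.5 and 113 against 73.6 and 53.97 CPM. GLP1R was at 0.0299 and 0.00762 CPM in PPDO and 2.77 and 24.6 CPM in primary pancreas, and the other receptor that passed was SSTR1, with no UMI in PPDO. The ghrelin receptor GHSR was the receptor with the highest level in PPDO, at 83.1 and 90.6 CPM, beside 124 and 47.9 CPM in primary pancreas (log2 fold change 0.40, SE 0.37, adjusted p = 0.443, edgeR). In primary cells GHSR was at 565 and 553 CPM in endothelial-like and 103 and 108 CPM in immune-like cells. It was at 30.3 and 44.0 CPM in ductal-like and 16.5 and 30.9 CPM in endocrine-like cells. GLP2R, a receptor of a second peptide cut from proglucagon, was at 1.58 and 0.911 CPM in PPDO and 3.15 and 2.55 CPM in primary pancreas. STRA6, which takes up retinol from its carrier, was at 0.199 and 0.145 CPM against 0.711 and 0.0761 CPM. The somatostatin receptor SSTR2 was at 0.0930 and 0.0953 CPM in PPDO and at 28.3 and 20.6 CPM in endocrine-like cells.

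GHRL did not follow the other members within primary pancreas. Its level was highest in immune-like cells, 217 and 136 CPM, then in endothelial-like cells, 39.4 and 25.7 CPM, and was 5.27 and 1.74 CPM in endocrine-like, 2.72 and 4.43 CPM in ductal-like and 0.403 and 0.746 CPM in acinar-like cells. It was found in 54.4% of 709 and 47.8% of 138 immune-like cells, whose median depth was 6695 and 9128.5 UMIs. The deeper ductal-like cells (medians 17871 and 20545 UMIs) showed it in 5.06% and 8.43%. Thinned to 3000 UMIs per cell, the shares were 38.3% and 21.0% of immune-like and 0.979% and 0.852% of ductal-like cells. Within the immune-like class the level was 325 and 222 CPM in cluster 13, led by CD300C, SLC11A1 and AIF1, and 260 and 54.1 CPM in cluster 14, led by CCL8, IL1A and CST3. In cluster 10, led by the lymphocyte genes GNLY, KLRK1 and CCL5, it was 58.3 and 44.5 CPM. The highest count in a cell was 15 and 21 UMIs, against medians of 5382 to 23895 UMIs for INS, GCG and SST in endocrine-like cells of primary pancreas 2 that they led. The enzyme that activates ghrelin, MBOAT4, was at 0.515 and 0 CPM in immune-like cells and at 0.659 and 0.295 CPM in endocrine-like cells, from at most 24 UMIs.

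The immune-like and endothelial-like pattern of GHRL was shared by a gene nearby. IRAK2, a kinase of interleukin-1 signalling, ends at 66416834 on the same chromosome, 25271 bases from GHRL, with TATDN2 between them and 127 bases from GHRL. IRAK2 was at 696 and 426 CPM in immune-like cells and at 0 and 0.528 CPM in endocrine-like cells. Over the 36 sums the correlation of GHRL was 0.84 with IRAK2 and 0.51 with TATDN2, and -0.22 with INS. It was higher than with IRAK2 for ARHGAP4 (0.88), PHF11 (0.88) and ACSL4 (0.87), so that a like pattern was not particular to IRAK2. Among immune-like cells, 89.9% and 86.4% of those with GHRL had IRAK2, against 44.9% and 47.2% of those without, at median depths of 8928.5 and 11912 against 5239 and 6372 UMIs. The immune-like class joins clusters that differ in GHRL level, and no gene other than IRAK2 was compared in this way. Nearly all GHRL UMIs, 99.4 to 99.7% in the 4 libraries, lay on the gene model and not on the extension. Whether some of these molecules came from transcripts of a nearby gene was not tested. The genes IRAK2 and TATDN2 were looked at after the GHRL values were seen. Since immune-like cells served as a reference, the GHRL limit of 9 and 8 UMIs was set by cells that held GHRL. With stellate-like and schwann-like cells as reference, 233 and 25 cells were led by GHRL in place of 14 and 4, and again none of them was endocrine-like.

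**Figure D5:**
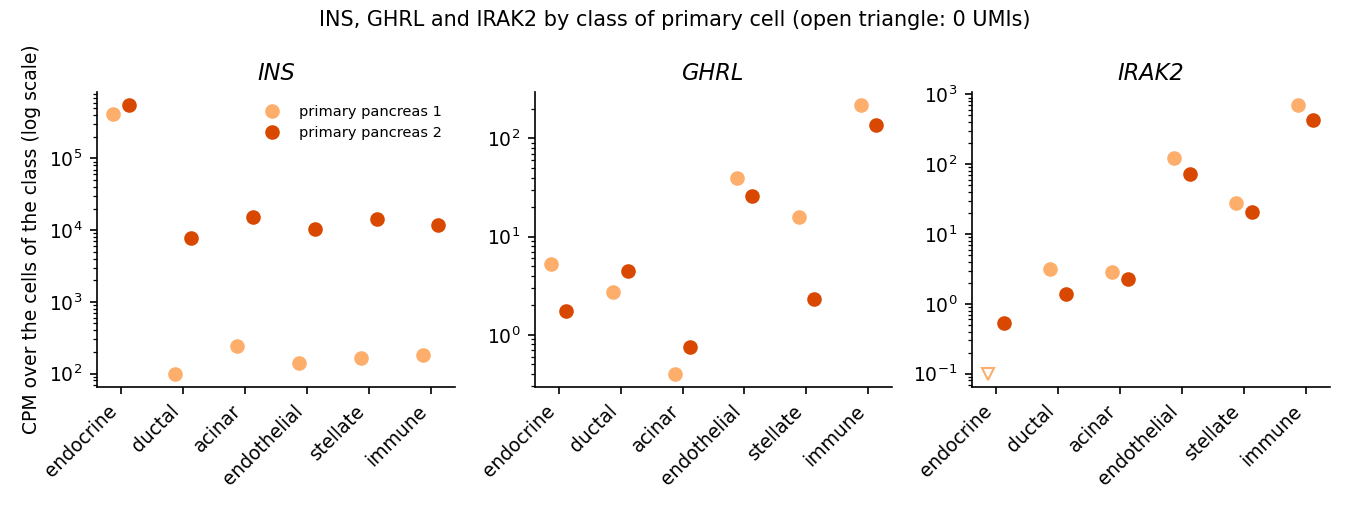
Level of INS, GHRL and the nearby gene IRAK2 in 6 classes of primary cells, in CPM on log axes, with 1 point per library and an open triangle for 0 UMIs. INS is highest in endocrine-like cells and lies between 99.3 and 244 CPM in the other classes of primary pancreas 1 and between 7780 and 15453 CPM in those of primary pancreas 2, whereas GHRL and IRAK2 are highest in immune-like cells.

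In PPDO the members other than GHRL were traces. INS was found in 57 of 8885 cells (0.642%, exact 95% interval 0.486 to 0.830) and 46 of 7337 cells (0.627%, 0.459 to 0.835), with 1 UMI in each. GCG was found in 0 of 8885 and 0 of 7337 cells, which allows a share of cells with a UMI of up to 0.0338% and 0.0409% (3 cells of the total), or 0.0415% and 0.0503% by the exact 95% limit. SST was found in 19 and 20 cells, PPY in 22 and 8 cells and TTR in 72 and 27 cells, with at most 2 UMIs in a cell. No PPDO cell therefore had an INS, GCG, SST, PPY or TTR count of 3, whereas INS-led endocrine-like cells had medians of 13118 and 23895 INS UMIs. The level of INS in PPDO was under that of the immune-like class of primary pancreas 1, 0.189 and 0.175 against 180 CPM. Of the INS UMIs, 1 of 57 and 0 of 46 were on a barcode that primary pancreas 2 also held.

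The position of the traces differed from that of the same genes in the organ. Over all barcodes, 86 of 88 and 30 of 31 TTR UMIs of PPDO 1 and 2 lay in the 3' extension, as did 23 of 24 and 10 of 10 PPY UMIs and 22 of 24 and 19 of 33 SST UMIs. In primary pancreas the extensions held 0.271% and 0.0960% of TTR, 3.57% and 0.0670% of PPY and 0.652% and 0.651% of SST UMIs. Most TTR and PPY molecules counted in PPDO were thus outside the gene models. GHRL was the exception, with 1883 of 1895 and 1490 of 1495 UMIs on the gene model. It was found in 15.3% and 14.8% of PPDO cells, with up to 9 and 11 UMIs in a cell, and in 1.64% and 1.56% after thinning to 3000 UMIs. That was above the 0.979% and 0.852% of ductal-like primary cells at the same depth, and no test was made. TATDN2, next to GHRL, was at 6.80 and 6.86 CPM in PPDO, and its UMIs had a Pearson correlation of 0.07 with those of GHRL across the cells of either library. IRAK2, at 1.04 and 1.56 CPM, had a correlation of 0.07 and 0.12 with GHRL. It was found in 4.87% and 8.84% of PPDO cells with GHRL and in 2.22% and 3.23% of those without, whose median depths were 38018 and 37415.5 against 33257 and 33899 UMIs.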

How the data were processed

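Members, lists and tests were chosen with earlier results of these data known. The matrices deposited hold unnormalised UMI counts, which the authors made with Cell Ranger 7.1.0 from 10x Chromium 3' libraries and an in-house pig annotation. The submitters' processing notes name Sscrofa11.1. The feature and barcode tables hold names, recorded as other. SoupX was applied by the authors after this step, so free RNA is still in the counts. The genes' positions are from RefSeq.

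Features were summed to 30282 genes, with 8 transgene features apart. Cells were kept by limits taken from the study (PPDO at most 3% mitochondrial UMIs, 1000 to 9000 features, where the study set a lower minimum for the PN100 line, which the labels do not tie to a library; primary under 8%, under 9000 and over 400 or 800 features, over 3000 UMIs in primary pancreas 2). Scrublet scores over 0.25 and 0.15 took out 89 and 154 primary cells. Primary cells were clustered without the members (Scanpy 1.11.5, 2000 variable genes, 20 components, 15 neighbours, Leiden 0.5) and named by the marker list with the highest mean log2 fold, with at least 3 markers in 10% of cells at 2-fold. The lowest mean log2 fold for a name, 0.5, was set after the clusters were seen. In the main clustering, clusters under 1/3 of the depth of their libraries stayed unnamed. In other settings some such clusters with a list marker among their 10 leading genes were named.

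Sums per library, and per class and library with at least 10 cells, were fitted with edgeR 4.0.16 (TMM, filterByExpr, glmQLFit and glmQLFTest, Benjamini-Hochberg at 0.05), with the library as a term for classes. The SE is the absolute log2 fold change over the square root of F. DESeq2 1.42.0, other limits, doublets kept and left-out libraries were alternatives. In simulated data, edgeR recovered 98.5% of 200 genes changed 4-fold among 25058 for PPDO against primary pancreas, with 10 false calls, at a dispersion of 0.05, below that of the data. Replicates are separate libraries of different animals or lines. Intervals are exact at 95% and cover counting error only. Genes were named by rule, namely the members, the 4 genes of a list highest in endocrine-like sums (for receptors also in PPDO), the 3 genes most like a member by Pearson correlation of log2(CPM + 1) over clusters of at least 20 cells, and the 5 genes with the largest log2 ratio (5 CPM added, at least 50 CPM) in cells led by a hormone, where at least 10 cells were led. Other genes of the lists that the text names were picked after their values were seen. INSM1, NPY4R, TMEM27 and FFAR1 had no symbol in the tables. Some genes of the lists are not reported here.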

Additional observations from a re-analysis of the deposited data

Results flagged for a closer look

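These values were picked out because the transgene features of the annotation were used in no comparison. In INS-led cells 1 of them showed a signal above that of immune-like and endothelial-like cells. The feature counted was mTmG_eGFP_bGH-pA-plus, an eGFP feature with a bGH poly(A) signal. It was found in 38 of 45 INS-led endocrine-like cells of primary pancreas 1 (84.4%, exact 95% interval 70.5 to 93.5). In primary pancreas 2 it was found in 1579 of 1774 such cells (89.0%, 87.5 to 90.4). The immune-like and endothelial-like cells of these libraries showed it in 1 of 1782 and 4 of 402 cells, and the GCG-led endocrine-like cells in 0 of 8 and 1 of 26. Ductal-like cells showed it in 23 of 2155 (1.07%) and 37 of 1174 (3.15%). Per 1000 INS UMIs of all kept cells, primary pancreas 1 had 0.225 and primary pancreas 2 had 0.198 eGFP UMIs. The methods name a wild-type and an INS-eGFP pig and give the transgene to sample #2, and the labels give no genotype. PPDO 1 had 16 eGFP UMIs in 15 cells and PPDO 2 had 0 in 7337 cells, beside 57 and 46 INS UMIs. Over all barcodes, the separate feature eGFP-plus had 0 UMIs in every library, and eGFP-minus had 26 UMIs in primary pancreas 2. Which transgene the counted feature stands for was not tested, and neither was the cause.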

How the results depend on the processing

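For PPDO against primary pancreas, 6349 genes passed, 10165 with DESeq2 and 2603 with a replicate block. Leaving out 1 library gave 0 to 13014 genes, where the lone library is assumed to vary like the other group. The replicate numbers do not pair these libraries, whose deviations had a correlation of -0.02 over 24753 genes. With the block, INS and TTR lost their call (adjusted p = 0.0522 and 0.0745, edgeR), and GCG and SST did not. PPY passed with DESeq2 (adjusted p = 5.91e-07). TMM factors without the members, no filter, doublets kept and all barcodes changed no call of a member. In endocrine-like against other cells the log2 fold change of INS was 6.40 to 11.42 and that of GHRL -0.98 to -1.48 over all alternatives, and leaving out the library term or a library did not turn a direction. With 1 library left out it was 6.72 to 11.48 for GCG and 7.11 to 12.51 for SST. For PPY it was then 7.01 to 7.14 and for TTR 6.83 to 10.80.

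The share of cells above the limit for any hormone, 3.49% and 49.9%, moved to 8.90% and 59.7% with the 95th percentile, 1.87% and 45.7% with the highest reference value, 2.58% and 52.7% after thinning, and 6.74% and 54.1% with stellate-like and schwann-like reference cells. In primary pancreas 1 it was 2.29% with at least 10 UMIs and 1.27% with at least 100. In primary pancreas 2 it was 53.2% with a limit in percent of UMIs and 38.2% with doublets kept, where the INS limit was 16819.5 in place of 733 UMIs. The share of endocrine-like cells with any hormone that had more than 1, 7.41% and 4.86%, was 1.89% and 1.82% with a limit in percent and 1.89% and 0.829% after thinning, and 0% and 0.386% with at least 100 UMIs. In primary pancreas 2 it was 13.7% with the 95th percentile, 3.15% with the highest value, 1.05% with at least 10 UMIs, 7.40% with immune-like cells alone and 13.5% with stellate-like and schwann-like cells. The median INS share of all INS-led cells of primary pancreas 1, in any class, was 0.984%. Without the 3 cells that held over 80% of a hormone of their library, SST lost its call between PPDO and primary pancreas (adjusted p = 0.0848, edgeR). The reference settings with stellate-like and schwann-like cells, 100 UMIs, all INS-led cells and the 3 cells were added after seeing the data. Levels of all 6 members together in PPDO, 5.82 and 5.30 CPM, moved by less than their counting interval. Of 276 further values for single members, 201 were counted as the same as with the main settings. In fits, 18 lost and 3 gained a call, and 54 shares of positive cells or traces moved. The share of GCG-positive cells of primary pancreas 2 moved in 8 of 9 alternatives. Traces of a few UMIs and 8, 11 or 26 cells led by a hormone limit what these counts can show.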

Other observations

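Clusters 8 and 9 stayed unnamed, and they too held INS. Both were of low depth. The best list of cluster 8 was the endocrine one, with a mean log2 fold of 0.97, and that of cluster 9 the acinar one, with 0.10. At resolution 1.0 a cluster of 17 and 358 cells led by RBFOX1 and SUSD4 was named endocrine-like. At resolution 0.3 a cluster of 46 and 377 cells led by RBFOX1 and GRM5 stayed unnamed. Cluster 8 had 46 and 377 cells in primary pancreas 1 and 2 and was led by RBFOX1, GRIK4 and SUSD4, with GRM5, a gene of INS-led cells, among its 10 leading genes. In primary pancreas 2 its cells held a median of 209 INS UMIs, with a highest value of 22301, at a median depth of 7605 UMIs. Cluster 9 had 5 and 343 cells and was led by SPHKAP, ADAD1 and EFEMP1, with RBPJL, an acinar factor, among its 10 leading genes. In primary pancreas 2 INS made up 18.1% of its UMIs, with a median of 774 INS UMIs at a median depth of 4037 UMIs and a highest value of 4276, whereas the median of immune-like cells there was 94 INS UMIs at 9128.5 UMIs. In all, 229 of the 2040 INS-led cells of primary pancreas 2 and 43 of the 161 of primary pancreas 1 were in unnamed clusters.

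In INS-led endocrine-like cells of primary pancreas 2 there were 125, 169, 204 and 252 TTR UMIs per 10000 UMIs other than INS, from the 444 cells with the lowest to the 444 with the highest INS share in groups cut at the quartiles, and 1.74, 2.31, 2.83 and 3.62 eGFP UMIs. Their median TTR was 217, 309, 328 and 321 UMIs, beside medians of 21053.5, 20630, 18468 and 15197 UMIs other than INS. The mitochondrial share of these groups had medians of 0.267, 0.198, 0.163 and 0.133% of UMIs. In primary pancreas 1, with 11 or 12 cells to a group, TTR stood at 51.9, 96.5, 234 and 166 UMIs per 10000 UMIs other than INS, so that the group with the highest INS share was not the highest in TTR. The groups were cut by a share that depends on all other genes, and no test was made.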
